A study of Pan troglodytes with 6 samples.

Results

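Enzymes that interconvert glutamine, glutamate and GABA were compared between 2 chimpanzee (Pan troglodytes) tissues, cerebellum and liver. The group holds 9 listed genes, chosen by name, and a gene entered when a row of the array's annotation gave that symbol and no other. 4 of the 9 entered, out of 12584 named genes in all: GLUL (feature 2447066), GAD1 (feature 2514969), GAD2 (feature 3239667) and GOT1 (feature 3302990), each with 1 row. GLS2, GLUD1, GLUD2, ABAT and GOT2 were not analysed here.

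The series measured 3 cerebellum and 3 liver samples, each on its own Affymetrix Human Exon 1.0 array, whose probes were designed on the human genome. In both tissues the labels give replicate 1 as a female aged 27 years, replicate 2 as a male aged 37 years and replicate 3 as a male aged 30 years. No treatment is named. The labels call the replicates biological without saying that 1 animal gave both tissues, and RNA of whole tissue mixes all its cell types.

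Glutamine synthetase, encoded by GLUL, joins ammonia to glutamate. In the brain it lies in astrocytes, which return glutamine to neurons, and in the liver it lies in the hepatocytes around the central vein, which take up ammonia that the urea cycle has left. Glutamate decarboxylase, encoded by GAD1 (GAD67) and GAD2 (GAD65), turns glutamate into the inhibitory transmitter GABA in neurons such as Purkinje cells and interneurons of the cerebellum. GOT1 is the cytosolic aspartate transaminase, which exchanges the amino group between glutamate and aspartate and is a part of the malate-aspartate shuttle that carries reducing power into mitochondria.

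Both tissues carried their defining markers. The summed intensity of 10 measured hepatocyte markers ran from 33266 to 36270.1 in liver and from 96.5 to 190.3 in cerebellum, that of 11 granule cell markers from 12259 to 13796 in cerebellum and from 651 to 795 in liver, and that of 12 markers of GABAergic neurons from 8937 to 14104 in cerebellum and from 1001 to 1323 in liver. RELN, with a cerebellum mean of 1980, is on both neuron lists and enters both of these sums and both counts below. ALDOC, at 3219, was the brightest of the 12 in cerebellum, where SLC32A1 averaged 35.5. The sum of 11 astrocyte markers ran from 7458 to 11275 in cerebellum and from 1709 to 3583 in liver. Liver replicate 3 stood apart from the other livers: all 11 macrophage markers were above the mean of the other 2 arrays there and all 11 pericentral hepatocyte markers below it. Results on the 4 enzymes are therefore also given without it.

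In the comparison of tissues 3 of the 4 enzymes passed the test and all 3 were higher in cerebellum (limma, adjusted p under 0.05 over all 15143 features). Across the array 50.6% of features passed, 26.7% with the higher level in cerebellum, so 3 calls in 4 genes is a small count against a high background. The values of the tissues did not overlap for the same 3 enzymes, as for 59.4% of all features. Cerebellum lay above without overlap in 31.0% of all features. GAD1 had the largest log2 difference and GOT1 did not pass. GAD2 and GLUL have no order: their 95% intervals overlapped, and GLUL exceeded GAD2 at a pseudocount of 38.3 (1.28 against 1.23) and without cerebellum replicate 2 (1.36 against 1.27). As a scale, the median log2 difference of all features was 0.04, and 52.8% of called features were higher in cerebellum. With the arrays aligned on ribosomal, proteasome and respiratory chain genes these became 0.39 and 69.8%. Differences below are on the log2(intensity + 16.8) scale, cerebellum minus liver, and fewer cells of a type cannot be told apart from less RNA per cell.

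**Figure D1:**
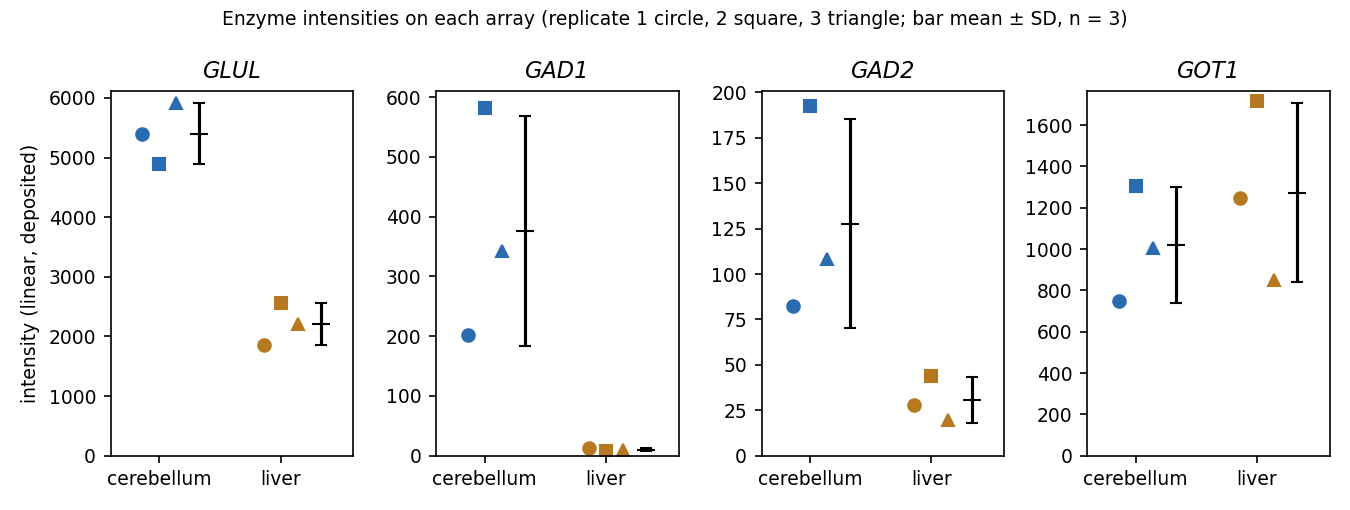
Deposited intensity (linear axis from 0, with its own range in each panel) of the 4 enzymes on the 3 cerebellum arrays (blue) and 3 liver arrays (orange), with the mean and SD beside them. The tissues do not overlap for GLUL, GAD1 and GAD2 and overlap for GOT1, and replicate 2 gave the highest cerebellum value of GAD1, GAD2 and GOT1.

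GLUL was bright in both tissues and higher in cerebellum. Its intensity was 5389, 4900.0 and 5922 in cerebellum replicates 1, 2 and 3, and 1864, 2557 and 2203 in the livers. The lowest cerebellum value thus lay well above the highest liver value. The means, 5404 ± 511 against 2208 ± 346 (SD, n = 3 each), stood 2.45-fold apart, and the log2 difference was 1.29 (95% interval 0.87 to 1.72, limma adjusted p = 4.93e-04). The 3 arrays of cerebellum were close, with a log2 SD of 0.14 that exceeded that of 30.9% of features. By size of difference in either direction, 25.6% of features differed more than GLUL. In a test against a 2-fold difference GLUL did not pass (limma treat, adjusted p = 0.319). The cerebellum values of GLUL lay near the top of the array's scale, so its difference could not read much larger. Its size, rank, SD and 2-fold test may therefore be limited by the scale, as may its comparison with GAD2. GLUL has processed pseudogenes in primates, and whether its feature shares signal with them was not tested.

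The astrocyte markers moved in the same direction as GLUL. Of 11 measured, 7 were higher in cerebellum and 1 higher in liver, beside 26.7% and 23.9% of all features. SLC1A3, the glial glutamate transporter that brings in the substrate of glutamine synthetase, averaged 2309 ± 623 in cerebellum against 33.5 ± 17.5, a log2 difference of 5.55 (limma adjusted p = 1.83e-06). NDRG2, a gene of astrocytes that liver also expresses, was at 2137 ± 285 and 817 ± 146, a log2 difference of 1.37. The marker higher in liver was ALDH1L1, a folate enzyme, at 82.7 ± 2.48 and 629.8 ± 371. The part of astrocyte content in the GLUL difference was not tested. Between the cerebella GLUL did not follow them: of the 11 markers, 0 were above the mean of the other 2 arrays in replicate 1 and 10 were in replicate 2, with median shifts of -0.33 and 0.31 (log2). The shift of GLUL in replicate 2 was -0.20, at values near the top of the array's scale.

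In the liver GLUL kept its level in the replicate in which other pericentral genes were low. Liver replicate 3 differed from the mean of the other 2 livers by 0.01 for GLUL, while the median of 11 pericentral markers was -1.21 and 0 of 11 were above. SLC1A2, a glutamate transporter that pericentral hepatocytes share with astrocytes, was at 541, 881 and 26.6 in liver replicates 1, 2 and 3. TBX3, a transcription factor of the same zone, was at 202, 287 and 39.9. RHBG, an ammonia transporter, was at 80.4, 56.8 and 14.7, and OAT, ornithine aminotransferase, at 1639, 747 and 245. In each of these genes the lowest of the 3 livers was replicate 3. They were named after their values were seen, and they fell more in replicate 3 than the other pericentral markers. Shifts of the others ran from -1.38 (LGR5) to -0.32 (CYP1A2), with -1.21 for CYP2E1 and -0.47 for AXIN2. Periportal markers were also low there, with a median shift of -0.94 and 2 of 11 above. CPS1, 1 of the low ones, was at 3077, 2715 and 1503. The general hepatocyte markers shifted less in replicate 3, with a median of -0.11 and 3 of 10 above. Macrophage markers and fibroblast and stellate cell markers were high, with 11 of 11 and 7 of 10 above and medians of 0.80 and 1.30. These shifts describe 1 array and have no test. Their part in the level of GLUL was not tested, and without liver replicate 3 the log2 difference of GLUL was 1.30.

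**Figure D2:**
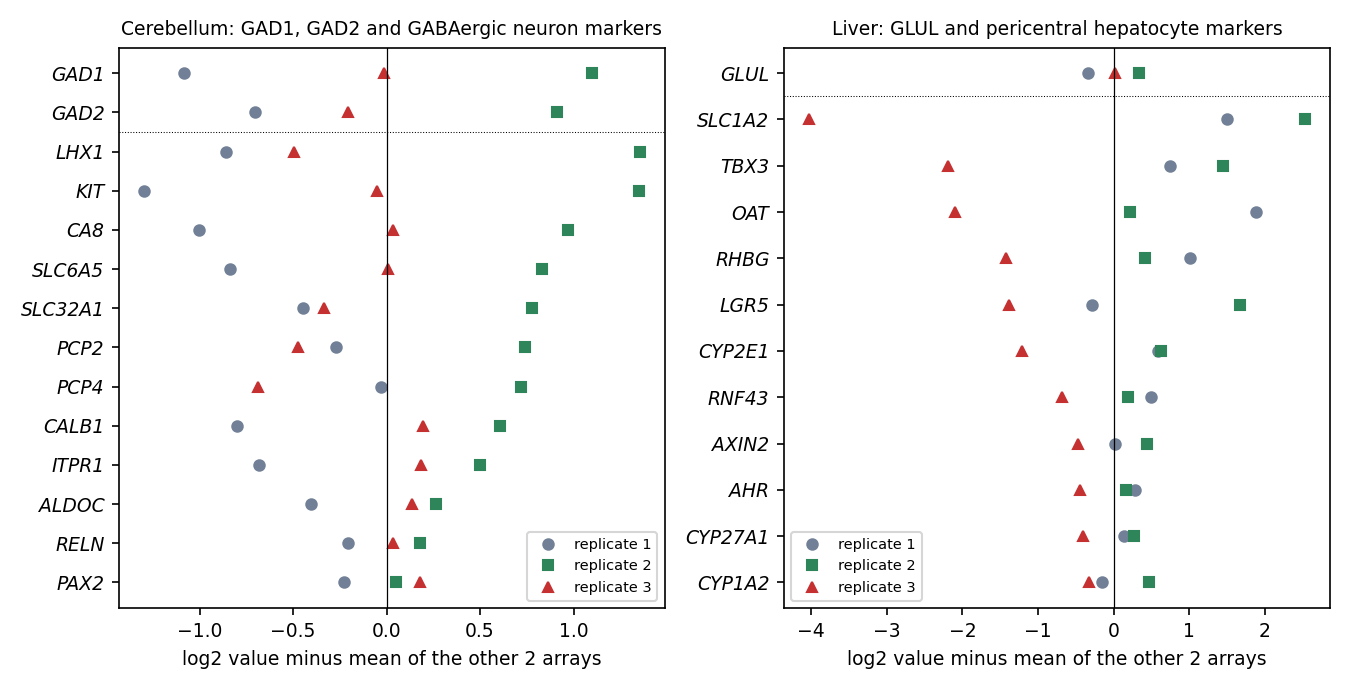
Log2 value of each array minus the mean of the other 2 arrays of its tissue, for GAD1, GAD2 and 12 GABAergic neuron markers in cerebellum (left) and for GLUL and 11 pericentral hepatocyte markers in liver (right). In cerebellum replicate 2 (squares) all lie to the right of 0, and in liver replicate 3 (triangles) the 11 markers lie left of 0 whereas GLUL lies at 0.01.

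GAD1 had the largest difference of the 4 enzymes. GAD1 was at 202, 582 and 342 in cerebellum replicates 1 to 3 and at 12.2, 7.20 and 9.48 in the livers. All 3 liver values lay under 16.8, the 10th percentile of the array's values, and the tissues were far apart. The means were 375 ± 193 and 9.62 ± 2.50 (SD, n = 3 each), with a log2 difference of 3.78 (95% interval 3.02 to 4.54, limma adjusted p = 2.81e-05), or 13.7-fold on this scale. That size rests on the pseudocount, as it was 4.57 with a pseudocount of 5.15 and 3.00 with 38.3.

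GAD2 gave lower contrast. Its intensity was 82.4, 192 and 108 in the cerebella and 28.0, 44.1 and 19.5 in the livers. Liver replicates 1 and 3 lay under 38.3, the 25th percentile of the array's values, so the liver signal was dim. The tissues did not overlap, though the lowest cerebellum and the highest liver value were less far apart than for GAD1. The means were 128 ± 57.5 and 30.6 ± 12.5, with a log2 difference of 1.57 (95% interval 0.87 to 2.27, limma adjusted p = 0.0028), or 2.97-fold on this scale. That size too rests on the pseudocount, at 1.87 with 5.15 and 1.23 with 38.3. Against a 2-fold difference GAD2 did not pass (limma treat, adjusted p = 0.223). Without liver replicate 3 its difference was 1.40.

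Both genes were compared by their log2 ratio within each array, which shows unequal difference and not the level of either gene against the other. The ratio of GAD1 over GAD2 was 1.14, 1.52 and 1.52 in the cerebella and -0.63, -1.35 and -0.47 in the livers. No cerebellum value reached down to the livers. The means differed by 2.21. A two-sided exact permutation test of 3 against 3 arrays cannot give less than p = 0.1, so it makes no call here. The size is set in part by the pseudocount, since GAD1 and, to a lesser degree, GAD2 are dim in liver. It was 2.70 at 5.15 and 1.77 at 38.3.

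GAD1 and GAD2 varied together among the cerebella. Replicate 2 lay above the mean of the other 2 arrays by 1.10 for GAD1 and 0.91 for GAD2, and replicate 1 lay below it at -1.09 and -0.71. The log2 SD of GAD1 in cerebellum, 0.73, exceeded that of 98.5% of features, and that of GAD2, 0.55, exceeded 95.6%. All 12 markers of GABAergic neurons were also above in replicate 2 and 0 of 12 were above in replicate 1, with medians of 0.73 and -0.56. KIT, a receptor of molecular layer interneurons, was at 284, 1004 and 518 and LHX1, a transcription factor of Purkinje cells, at 185, 544 and 221, the same order as GAD1. Both were named after their values were seen. Of the brightest markers, ALDOC read 2646, 3611 and 3399, also in that order, and PCP4 read 2072, 2932 and 1525. PCP4 and PCP2 (206, 339 and 186) were lowest in replicate 3, and PAX2 (58.9, 69.2 and 74.6) was highest there. Other cell types were also high in replicate 2: 10 of 11 macrophage and microglia markers were above (median 0.53), 7 of 9 endothelial markers (0.57), 10 of 11 astrocyte markers (0.31), 8 of 10 fibroblast markers (0.30) and 9 of 11 granule cell markers (0.18). Oligodendrocyte markers had a median of -0.23 in replicate 2, with 2 of 8 above, and of 0.62 in replicate 1, with 6 of 8 above. The part of cell composition in these levels was not tested. Without cerebellum replicate 2 the log2 difference was 3.41 for GAD1 and 1.27 for GAD2, and both passed (limma, adjusted p = 6.56e-05 and 0.00683). Without liver replicate 3 the differences were 3.78 and 1.40.

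The 4 listed carriers of GABA that were measured did not share a direction. SLC6A11, a GABA transporter of glia, read 70.7, 144 and 95.9 in the cerebella against 18.0, 1.47 and 4.59 in the livers, a log2 difference of 2.29 (limma adjusted p = 3.13e-04). SLC32A1 loads GABA into synaptic vesicles. Its intensity was 24.4, 55.7 and 26.5 against 12.0, 22.7 and 22.6, and it did not pass (limma adjusted p = 0.134). With the arrays aligned on general genes it did (adjusted p = 0.00911). SLC6A12, a carrier of betaine and GABA, went the other way, at 54.6 ± 26.4 in the cerebella against 534 ± 155 in the livers (log2 difference -2.97, limma adjusted p = 7.2e-05). SLC6A13, a further GABA carrier, did not pass (log2 difference -0.30, adjusted p = 0.441), but without liver replicate 3 it did (-0.66, adjusted p = 0.0206). These carriers were named after their values were seen.

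GOT1 did not pass, and its tissues overlapped. Its intensity was 749, 1307 and 1004 in the cerebella against 1247, 1719 and 852 in the livers. The highest value was that of replicate 2 in both tissues, and liver replicate 3 lay below 2 of the cerebella. The means were 1020.1 ± 279 and 1273 ± 434, with a log2 difference of -0.29 (95% interval -0.97 to 0.38, limma adjusted p = 0.439). That interval still holds differences of close to 2-fold toward liver. Between arrays of the same replicate number the differences were -0.72, -0.39 and 0.23, so they did not share a sign. The log2 SD was 0.39 in cerebellum and 0.50 in liver, above that of 86.8% and 85.2% of features. Single arrays moved the difference: it was -0.093 without cerebellum replicate 1, -0.49 without cerebellum replicate 2, -0.051 without liver replicate 2 and -0.55 without liver replicate 3 (limma adjusted p = 0.13 in the last). On arrays aligned on general genes it turned to 0.056.

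Partners of GOT1 in the malate-aspartate shuttle did differ, in opposite directions. The 5 genes of this paragraph were named after their values were seen. The mitochondrial aspartate-glutamate carrier has 2 forms. SLC25A12 (aralar) read 348, 395 and 387 in the cerebella against 34.9, 40.0 and 37.7 in the livers, and SLC25A13 (citrin) at 112, 113 and 75.5 and at 1063, 911 and 851. Neither gene's tissues overlapped, and the log2 differences were 2.86 and -3.04 (limma adjusted p = 2.10e-06 and 5.21e-06). Cytosolic malate dehydrogenase MDH1 was higher in cerebellum by 0.71 (limma adjusted p = 0.0100) and mitochondrial MDH2 higher in liver, at -1.08 (adjusted p = 0.0101). The call of MDH1 was lost without cerebellum replicate 3, and neither MDH1 nor MDH2 passed against a 2-fold difference. The oxoglutarate carrier SLC25A11 did not pass (log2 difference -0.51, limma adjusted p = 0.117).

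**Figure D3:**
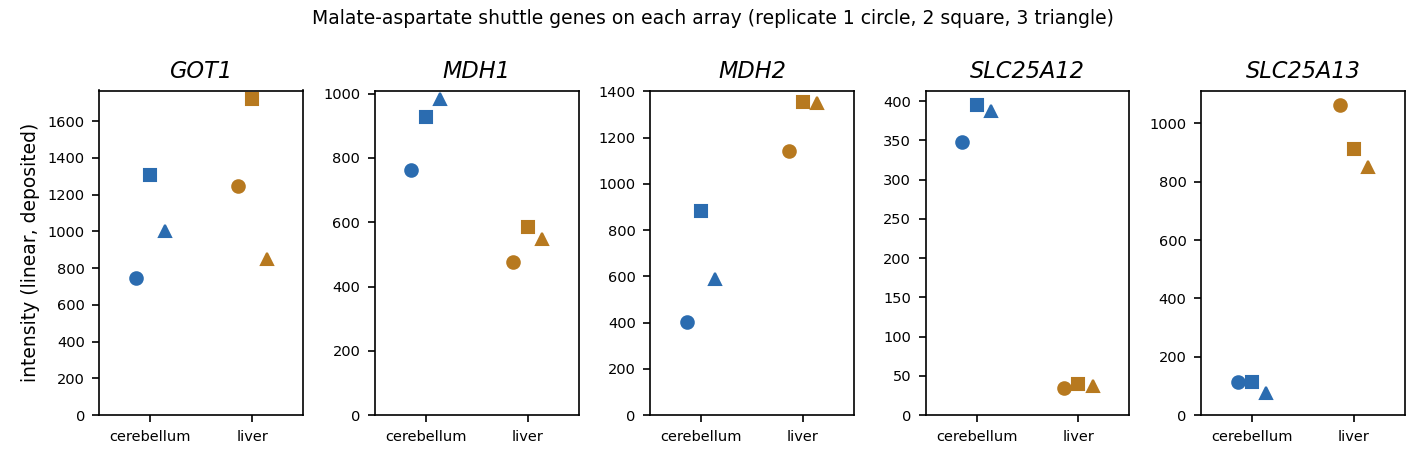
Deposited intensity (linear axis from 0, with its own range in each panel) of GOT1 and 4 partner genes of the malate-aspartate shuttle on 3 cerebellum (blue) and 3 liver (orange) arrays. GOT1 overlaps between tissues, SLC25A12 and MDH1 are higher in cerebellum, and SLC25A13 and MDH2 are higher in liver.

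Around the 4 enzymes, 74 of 89 listed genes of 5 pathway lists were measured, of which 15 were higher in cerebellum and 33 higher in liver. That is 64.9% called beside 50.6% of all features, with a median log2 difference of -0.51 beside 0.04. With the arrays aligned on general genes the counts were 21 and 27, and against a 2-fold difference they were 8 and 19. The lists were chosen with results of these data known, so their direction is a description.

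Of 24 measured carriers of glutamate, glutamine and GABA, 8 passed toward cerebellum, 6 toward liver and 10 in neither direction (median 0.41). These shares are near those of all features, 26.7% toward cerebellum and 23.9% toward liver, so the counts are no result about the carriers. With the arrays aligned on general genes 12 were higher in cerebellum and 5 in liver. SLC38A1, which brings glutamine into neurons, averaged 1989 ± 243 in cerebellum against 143 ± 162 in liver, where replicate 3 gave 330.4 beside 48.2 and 51.9 (log2 difference 4.11, limma adjusted p = 4.31e-04, and 4.90 without that array). SLC38A3, a glutamine carrier of astrocytes and hepatocytes, went the other way, at 55.3 ± 18.3 and 1187 ± 55.5 (log2 difference -4.09, adjusted p = 1.29e-06). SLC1A1, a glutamate transporter, was also higher in liver, by a log2 difference of -3.25, and its livers were at 1177, 1474 and 392. SLC1A3, described with GLUL, had the largest difference of the list toward cerebellum.

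Genes on the urea cycle list and on the list of other glutamate enzymes were mostly higher in liver, where GLUL was lower. Over all features 23.9% passed toward liver and 26.7% toward cerebellum. On the list of the urea cycle and of ammonia transport 8 genes were measured, of which 5 passed toward liver and 0 toward cerebellum (median -4.08). On aligned arrays 2 passed toward cerebellum, among them RHBG, which missed the threshold before alignment (limma adjusted p = 0.0532) and passed in 6 of 13 alternatives in all. CPS1, which fixes ammonia for the cycle, averaged 15.5 ± 2.64 against 2432 ± 824, and ARG1, its last enzyme, differed by -5.37 (limma adjusted p = 5.80e-07 and 1.26e-06). Of 18 measured genes on the list of other glutamate enzymes, 12 passed toward liver and 1 toward cerebellum (median -1.62). Some are on it by family only, such as CSAD, which does not act on glutamate, and AGXT, which acts on alanine and glyoxylate. TAT and AGXT, transaminases of tyrosine and of alanine and glyoxylate, were at 21.0 ± 1.09 against 1633 ± 719 and at 22.8 ± 1.11 against 826 ± 305. BCAT2, a branched-chain transaminase, was the gene higher in cerebellum, by 0.56 (limma adjusted p = 0.0257). That call was lost in 5 of 12 alternatives, among them the removal of cerebellum replicate 1 or 3 or of liver replicate 1 or 2.

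Of 10 measured glutamine amidotransferases, enzymes that spend the product of GLUL, 3 were higher in each tissue and 4 were not called, with a median of -0.35. These counts too are near the shares of all features. ASNS, which makes asparagine, read 699, 453 and 592 in the cerebella against 9.19, 5.46 and 31.0 in the livers (log2 difference 4.29, limma adjusted p = 7.83e-06). GMPS, an enzyme of guanine nucleotide synthesis, differed by 1.55 and NADSYN1, which makes NAD, by -1.08 (adjusted p = 3.26e-04 and 6.52e-04). Among the genes higher in liver is CPS1, which is on this list by family although its mammalian form uses ammonia. Neither GMPS nor NADSYN1 passed against a 2-fold difference.

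Downstream of GAD1 and GAD2, the GABA shunt returns the carbon of GABA to the TCA cycle as succinate. Of 16 measured genes of the shunt and the neighbouring steps, 3 passed toward cerebellum and 8 toward liver (median -0.55). Over all features the shares were 26.7% and 23.9%. With the arrays aligned on general genes 5 of the 16 passed toward liver. The shunt's own dehydrogenase ALDH5A1, named after its values were seen, averaged 219 ± 14.2 against 342 ± 66.2 (log2 difference -0.59, limma adjusted p = 0.0303). Its call was lost in 8 of 13 alternatives, among them leaving out any 1 of the cerebella or liver replicate 1 or 2, and it was -0.24 (adjusted p = 0.403) on aligned arrays. The partner subunits of succinyl-CoA ligase parted by tissue. SUCLA2, of the ATP-forming enzyme, was at 797, 408 and 957 against 278, 187 and 244 (log2 difference 1.48), and SUCLG2, of the GTP-forming enzyme, at 33.6, 43.0 and 34.2 against 818, 725 and 582 (-3.75). ME3, a mitochondrial malic enzyme, was higher in cerebellum by 1.42 and PC, pyruvate carboxylase, higher in liver at -1.64 (limma adjusted p = 1.93e-04 and 8.71e-04). SUCLA2, ME3 and PC did not pass against a 2-fold difference.

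**Figure D4:**
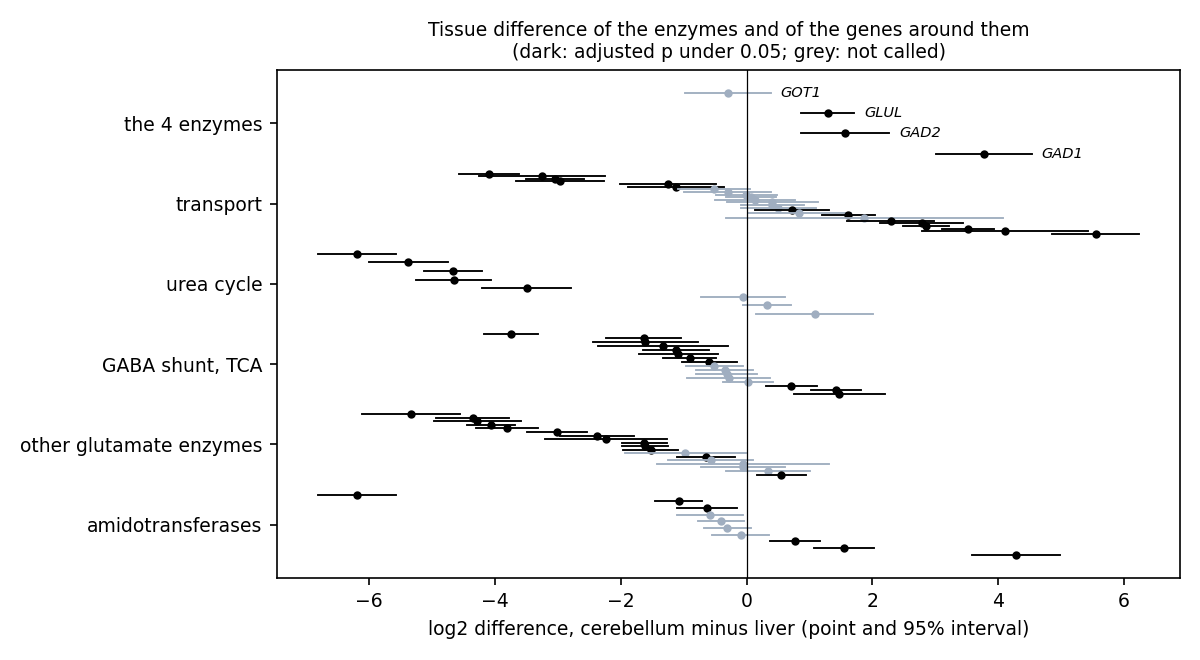
Log2 difference between tissues (point, with its 95% interval as a line) for the 4 enzymes and each measured gene of the 5 pathway lists, dark where the adjusted p is under 0.05. GAD1, GAD2 and GLUL lie right of 0 and GOT1 spans it, whereas most of the urea cycle and other glutamate enzymes lie left of 0.

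The genes most like GLUL and GAD1 over the 6 arrays were found by the root mean square difference of their log2 values, each centred on its own mean. For GLUL they were TOGARAM1 (0.052), a gene of the primary cilium, TRMT6 (0.064), a tRNA methyltransferase subunit, and PRPF18 (0.082), a splicing factor. For GAD1 they were SYT2 (0.21), a synaptotagmin of transmitter release, CDK5R1 (0.24), the activator of the kinase CDK5, and PTPRZ1 (0.25), a receptor phosphatase of glia. SYT2 was at 416, 973 and 553 in cerebellum replicates 1 to 3 and at 26.1, 30.7 and 18.0 in the livers, with replicate 2 highest as for GAD1.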

How the data were processed

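Total RNA was reduced for ribosomal RNA and labelled with biotin, per the labels' protocols. The submitters' processing notes name GCOS. How background was removed and probes were summarised is not given in the sources used here, and the deposited values are linear intensities for 15143 features; some lie below 0, and all 6 arrays hold the same sorted values, which shows quantile normalization by the authors and cannot show a difference in total signal. The number of arrays limits the precision.

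Values below 0 were set to 0 and transformed as log2(intensity + 16.8), the 10th percentile of all values. Tissues were compared with limma 3.58.1 in R 4.3.3 (two-sided, Benjamini-Hochberg over all features, threshold 0.05, no block, no filter), and the script was tested on simulated data. P values measure the spread between 3 arrays a tissue.

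The members and lists were chosen with earlier results of these data known. The text names the members, the 2 largest called genes of each pathway list in each direction, the brightest or opposite genes of the cell type lists that bear on a member, and the 3 nearest patterns of GLUL and GAD1. Others are stated. Of 9 listed enzymes 5 were not analysed here, so 3 planned ratios were not computed.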

Additional observations from a re-analysis of the deposited data

How the results depend on the processing

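GAD1 passed in 13 of 13 alternatives (log2 difference 3.00 to 4.57, limma adjusted p 3.91e-06 to 3.71e-04), GLUL in 12 of 13 (1.18 to 1.64) and GAD2 in 12 of 13 (1.23 to 1.92). GOT1 passed in 0 of 13 (adjusted p 0.13 to 1). The alternative that ended calls was a test against a 2-fold difference, which left GLUL at 1.29 (adjusted p = 0.319), GAD2 at 1.57 (adjusted p = 0.223), 1 of 4 enzymes called, 1295 features higher in cerebellum and 1350 higher in liver, and 8 and 19 genes of the pathway lists. It asks for a larger difference by construction, and GLUL in cerebellum lay near the top of the array's scale. Aligning the arrays on 89 general genes turned GOT1 from -0.29 to 0.056, a shift that this alignment gives to each feature. Leaving out 1 array at a time gave 1.18 to 1.40 for GLUL, 3.41 to 4.14 for GAD1, 1.27 to 1.81 for GAD2 and -0.55 to -0.051 for GOT1.

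With the replicate block, the adjusted p was 0.00183 for GLUL, 9.27e-05 for GAD1, 8.67e-04 for GAD2 and 0.339 for GOT1, and no call of the 4 changed. Deviations of same-numbered arrays from their tissue means correlated at 0.112, 0.164 and -0.144 over features, so the numbers were not taken to pair the samples. No member had a further row, so the alternative row could not be tried.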

Other observations

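Some further genes of the list of other glutamate enzymes were higher in liver. They were picked after their values were seen and stand for no theme. GCLC and GCLM, the subunits of the ligase that opens glutathione synthesis, differed by -1.63 and -1.52 on the log2 scale (limma adjusted p = 4.67e-05 and 2.15e-04), and FPGS, which adds glutamate to folates, by -1.61. FTCD, which forms glutamate in histidine breakdown, differed by -4.06, and ALDH4A1, which forms it from proline, by -3.80. CSAD, a decarboxylase of taurine synthesis related to GAD1 and GAD2 that does not act on glutamate, was at 98.0, 99.8 and 103 in cerebellum and 1073, 1081 and 691 in liver, a difference of -3.01 (limma adjusted p = 7.11e-06). OAT, a pericentral enzyme that forms glutamate, overlapped between tissues, and its livers ran from 245 to 1639.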
